A study of Mus musculus with 2 samples.

Results

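The miR-322 cluster is a group of 7 miRNA hairpins that lie close together on the same strand of the mouse X chromosome. In human the counterpart of miR-322 is called miR-424. The 7 genes are Mir322, Mir503, Mir351, Mir542, Mir450-2, Mir450-1 and Mir450b. They were chosen by their GENCODE symbols and shared position out of 1973 miRNA genes in the tables, with their levels in these same libraries already known. Their levels and the differences between them are therefore given as a description, without a test. The measurements are microRNA-seq counts from hindbrain of B6NCrl mouse embryos at 12.5 days, from healthy tissue of both sexes, with no treatment or genetic change in the labels. There was 1 group of 2 libraries, replicate 1 from a pool of 120 embryos and replicate 2 from a pool of 88. The labels give them separate biological replicate numbers but the same donor, so the spread between them rests on those labels and may be partly technical. In bulk tissue, fewer cells of a type and less RNA per cell cannot be told apart.

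MicroRNAs are cut from hairpin precursors and guide silencing proteins to messenger RNAs, which they recognise mainly through the seed, bases 2 to 8 from the 5′ end. Neighbouring hairpins on a strand are often carried by the same primary transcript and then released separately. miR-322 (miR-424 in human) and miR-503 belong with miR-15 and miR-16, which restrain cell division by repressing cyclins and other cell-cycle genes, and they are known for promoting exit from the cell cycle during muscle differentiation. miR-351 has the seed of miR-125, a family that is abundant in the nervous system. miR-542-3p is known for repressing survivin, a protein of cell division. The miR-450 hairpins are the remaining members of the cluster.

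The mature sequences show which families the hairpins belong to and which reads can be assigned to a single hairpin. They are shown 5′ to 3′ from RefSeq (GRCm38.p6), with the seed in capitals, and all 7 genes had a mature entry. The miR-16 and miR-125a sequences, from genes outside the cluster, are given for comparison.
miR-322-5p: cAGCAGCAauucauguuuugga
miR-503-5p: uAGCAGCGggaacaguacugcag
miR-16-5p: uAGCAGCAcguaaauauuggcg
miR-351-5p: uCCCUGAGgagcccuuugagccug
miR-125a-5p: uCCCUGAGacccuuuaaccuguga
miR-542-3p: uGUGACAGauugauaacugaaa
miR-450a-5p (Mir450-1 and Mir450-2): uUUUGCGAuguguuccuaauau
miR-450b-5p: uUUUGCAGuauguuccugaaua
miR-450a-1-3p: aUUGGGAAcauuuugcauaaau
miR-450a-2-3p: aUUGGGGAugcuuugcauucau
miR-450b-3p: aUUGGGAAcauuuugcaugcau

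The seeds divide the cluster into several families. miR-322-5p has the whole miR-16 seed, and over the full length, seed included, 12 of 22 positions are identical. miR-503-5p shares bases 2 to 7 with miR-322-5p and no mature sequence in the RefSeq table has its full seed. miR-351-5p has the seed of miR-125a-5p but is identical to it at only 10 of 24 positions. The seed of miR-542-3p was found in no other mature miRNA of the table. Mir450-1 and Mir450-2 encode the identical miR-450a-5p, and their 3p arms are identical at 16 of 22 positions. miR-450b-5p matches miR-450a-5p at 15 of 22 positions, and its seed differs. The 3p arms of Mir450-1 and Mir450b share their seed and 20 of 22 positions. Mir450-1 and Mir450-2 have a stretch of 20 identical bases in common, whereas the other 5 hairpins have none in common with any GENCODE M21 hairpin. Reads that match several positions were tallied apart by the authors, so miR-450a-5p reads could not be credited to either of its genes.

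In the GRCm38 assembly, the cluster spans 6353 bases of the minus strand of chromosome X, from 53047997 to 53054349. Read along the strand, Mir322 (ENSMUSG00000065418.1, 53054255 to 53054349) comes first, followed after 200 bases by Mir503 (ENSMUSG00000076122.1, 53053984 to 53054054). Mir351 (ENSMUSG00000065503.1, 53053255 to 53053353) lies another 630 bases on. These hairpins span 1095 bases, gaps included. A gap of 3767 bases then leads to Mir542 (ENSMUSG00000076140.1, 53049403 to 53049487), and within it the annotation places the noncoding gene Gm28730 on the same strand. Mir450-2 (ENSMUSG00000076399.1, 53048299 to 53048367), Mir450-1 (ENSMUSG00000065486.1, 53048154 to 53048244) and Mir450b (ENSMUSG00000076050.1, 53047997 to 53048078) close the cluster within 371 bases. No hairpin of the cluster overlaps an annotated exon or intron of another gene. The noncoding gene C430049B03Rik, also on the minus strand, ends 697 bases upstream of Mir322.

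**Figure D1:**
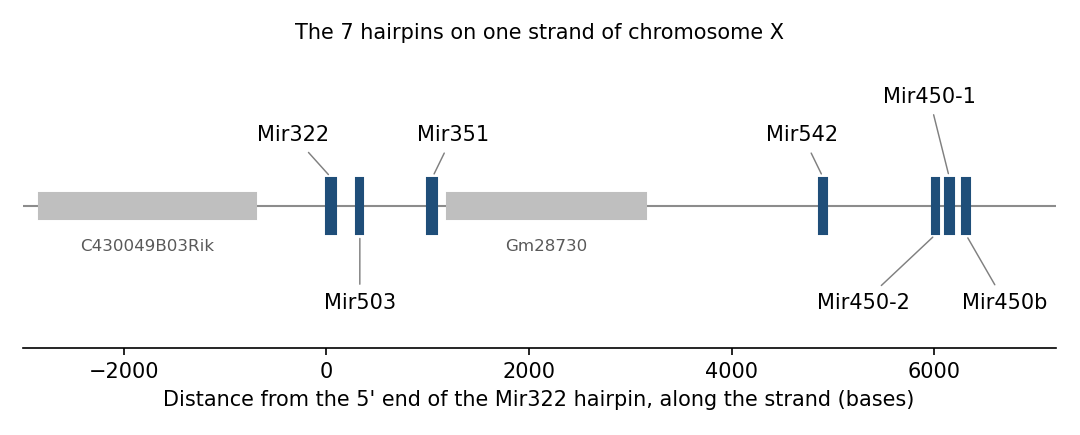
Map of the cluster drawn to scale, with distance in bases from the 5′ end of the Mir322 hairpin along the minus strand on the horizontal axis. Blue boxes are the 7 hairpins and grey boxes are annotated noncoding genes on the same strand, and the 3767-base gap separates Mir351 from Mir542.

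Depth was 2764276 counts assigned to miRNA genes in replicate 1 and 3946444 in replicate 2. Levels are given as counts per 1000000 assigned counts (CPM), and a count of 0 allows up to 1.09 and 0.760 CPM. Intervals are exact Clopper-Pearson 95% intervals, and these and the floors cover counting error only. The count of a hairpin holds its 5p and 3p arms together. A read stands for a whole mature miRNA and does not scale with hairpin length, and small RNA libraries favour some sequences over others, so differences between hairpins include such preferences. The hindbrain markers Mir10a (26347 and 25880 CPM) and Mir10b (15998 and 14531 CPM) were high in both libraries. Of 7 counted neural markers, 4 had at least 10 counts in both libraries, among them Mir137 (3263 and 3343 CPM) and Mir153 (1316 and 1614 CPM). The miR-9 and miR-124 genes counted here share sequence among copies. Mir9-3 had 367 and 398 CPM, and the others reached at most 10.5 CPM.

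All 7 hairpins were detected, here meaning at least 10 counts in both libraries, as were 371 of the 1973 genes. Together they had 65514 counts in replicate 1 and 106746 in replicate 2. This was 2.37% (interval 2.35% to 2.39%) and 2.70% (2.69% to 2.72%) of the assigned counts, or 2.54% ± 0.237 (SD, n = 2). The first 3 hairpins along the strand, Mir322, Mir503 and Mir351, held 98.1% and 97.9% of the cluster's counts in replicates 1 and 2. The other 4 held 1.95% and 2.12%. None of the hairpins had a read on the opposite strand in either library.

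Mir322 was the highest member of the cluster. It had 52737 counts or 19078 CPM in replicate 1 and 87565 counts or 22188 CPM in replicate 2, with a mean of 20633 ± 2199 CPM (SD, n = 2). It held 80.5% of the cluster's counts in replicate 1 (80.2% to 80.8%) and 82.0% in replicate 2 (81.8% to 82.3%). By mean CPM it ranked 12 among all miRNA genes. Its neighbours in that order were Mirlet7g (22161 and 20109 CPM), of the let-7 family that promotes differentiation, and Mir20a (16840 and 20763 CPM), of the growth-promoting miR-17-92 cluster. The libraries of Mir322 overlapped those of both neighbours, so their order was within the spread between the replicates.

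Mir351, with the miR-125 seed, was second in the cluster. Its level was 3688 CPM from 10194 counts in replicate 1 and 3689 CPM from 14559 counts in replicate 2. With a mean of 3688 ± 0.975 CPM (SD, n = 2), it had the closest match between libraries of the 7 hairpins. The counting intervals were far wider than this SD, at 3617 to 3760 CPM in replicate 1 and 3630 to 3749 CPM in replicate 2. Mir351 ranked 57, between Mir181b-2 (3362 and 4029 CPM), which shares sequence with another copy, and Mir872 (3592 and 3599 CPM). The ratio of Mir322 to Mir351 was 5.17 in replicate 1 and 6.01 in replicate 2. Mir351 held 15.6% of the cluster's counts in replicate 1 (15.3% to 15.8%) and 13.6% in replicate 2 (13.4% to 13.8%).

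Mir503, the seed relative of Mir322 that lies only 200 bases from it, was far lower. Replicate 1 had 473 CPM from 1307 counts and replicate 2 had 599 CPM from 2364 counts, a mean of 536 ± 89.2 CPM (SD, n = 2). Mir322 exceeded Mir503 by 40.3-fold and 37.0-fold in replicates 1 and 2. Mir351, the next hairpin along the strand, exceeded it by 7.80-fold and 6.16-fold. Mir503 thus lay between 2 higher neighbours in both libraries. It ranked 134, between Mir16-2 (532 and 630 CPM) and Mir186 (562 and 444 CPM), and overlapped both over the libraries. The miR-16-5p of Mir16-2 shares bases 2 to 7 with miR-503-5p but not the whole seed. The Mir16-2 hairpin shares sequence with another copy.

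Mir542, the first hairpin beyond the gap, was close to Mir503. Its values were 350 CPM (967 counts) and 410 CPM (1617 counts) in replicates 1 and 2, with a mean of 380 ± 42.4 CPM (SD, n = 2). Mir503 was 1.35-fold higher than Mir542 in replicate 1 and 1.46-fold higher in replicate 2, and their libraries did not overlap. This was the smallest step between neighbours in level. Mir351 exceeded Mir542 by 10.5-fold and 9.00-fold.

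The 3 miR-450 hairpins were the lowest members and together held 0.472% and 0.600% of the cluster's counts. Mir450b led them with 99.5 CPM from 275 counts in replicate 1 and 142 CPM from 562 counts in replicate 2. Mir450-1 had 7.60 CPM (21 counts; interval 4.70 to 11.6 CPM) and 13.7 CPM (54 counts; 10.3 to 17.9 CPM). Mir450-2 had 4.70 CPM (13 counts; 2.50 to 8.04 CPM) and 6.33 CPM (25 counts; 4.10 to 9.35 CPM). Both lie above the floor of 3 counts. Mir450-1 was higher than Mir450-2 in each library, but in replicate 1 their counting intervals overlapped. Mir450b exceeded Mir450-1 by 13.1-fold and 10.4-fold in replicates 1 and 2. The values of Mir450-1 and Mir450-2 hold no read that matches both genes, including those of the identical miR-450a-5p shown above, and are no measure of total miR-450a.

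**Figure D2:**
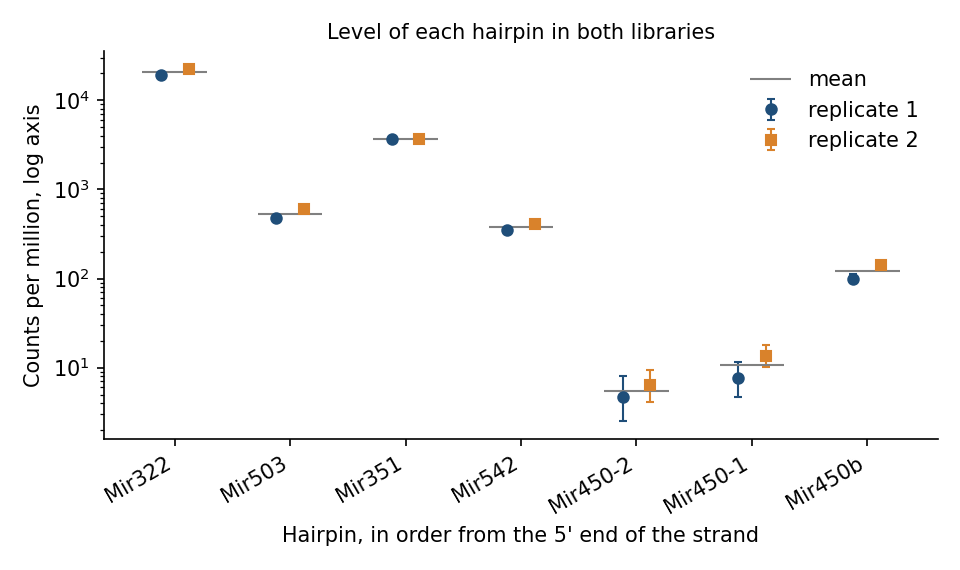
CPM of each hairpin on a log axis, in order along the strand. Circles are replicate 1, squares replicate 2, bars exact 95% counting intervals and grey lines the means, and Mir322 stands at 20633 CPM while Mir450-2 stands at 5.52 CPM.

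As counted, the hairpins of the cluster thus ranged over more than 3 orders of magnitude. The lowest, Mir450-2, had 13 and 25 counts, which hold no read that also matches Mir450-1. The ratio of Mir322 to Mir450-2 was 4057 in replicate 1 and 3503 in replicate 2, a mean of 3780 ± 392 (SD, n = 2). Among the 5 hairpins that share no run of 20 bases, the lowest was Mir450b, and the ratio of Mir322 to it was 192 and 156. Divided by hairpin length, an alternative added after the data were seen, the ratio of highest to lowest was 2745 on average. The descending order was Mir322, Mir351, Mir503, Mir542, Mir450b, Mir450-1 and Mir450-2 in both libraries, and no 2 hairpins overlapped over the libraries. As a description over 7 hairpins of the same libraries, Spearman's rho of level with order along the strand was -0.82. Mir503 and Mir450-2 were the hairpins with a higher neighbour on each side.

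Base composition differed along the cluster. Mir322, Mir503, Mir351 and Mir542 had a GC content of 51.6%, 54.9%, 50.5% and 51.8%. The 3 miR-450 hairpins had 36.2% (Mir450-2), 33.0% (Mir450-1) and 30.5% (Mir450b), below the first 4 hairpins of the strand. Over the 7 hairpins, as a description, Spearman's rho of GC content with level was 0.57, and within the miR-450 hairpins the order was reversed, with the lowest level in Mir450-2 and the highest in Mir450b. Lengths ran from 69 to 99 bases. The predicted folding energy, from RNAfold, ran from -26.5 kcal/mol for Mir450-2 to -42.9 kcal/mol for Mir322. That order did not follow the level throughout, since the low Mir450-1 had -41.0 kcal/mol, and its rho with level was -0.50. Neither the order nor its rho was scaled by hairpin length. Per base, the energy ran from -0.530 kcal/mol for Mir503 to -0.377 kcal/mol for Mir351, the second highest hairpin. The levels of Mir450-1 and Mir450-2 in these orders and rho values lack every read that matches both genes. Mir450b shares no run of 20 bases with another hairpin. Its miR-450b-3p is identical to miR-450a-1-3p from base 2 to base 18, and shorter shared runs were not screened. The part of GC content, length and folding energy in the levels was not tested.

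The ratio between highest and lowest hairpin was next set beside those of other miRNA clusters, built alike from the annotation by joining hairpins on the same strand whose starts lie within 10 kb. Of 15 clusters with at least 3 detected hairpins, the range of the Mir322 cluster was the highest, against a median of 76.5-fold and a lowest value of 4.37-fold for the miR-183 cluster of sensory organs. The cluster led by Mir17, the miR-17-92 cluster, followed with 2279-fold and the distal Dlk1-Dio3 cluster led by Mir487b with 1539-fold. The miR-106a-363 cluster, which lies 305429 bases away on the same strand of the X chromosome, had 261-fold. In the Mir322, Mir17 and Mir106a clusters the lowest hairpin was one that shares sequence with another copy (Mir450-2, Mir19b-1 and Mir19b-2). Without such hairpins the Mir322 cluster ranked 4 of 12, and with a minimum of 50 counts, which also removes Mir450-1 and Mir450-2, it ranked 3 of 12. With a minimum of 1 count, which keeps both, it ranked 3 of 17, so its first place depends on the detection minimum as well as on these hairpins. The lowest detected hairpin has at least 10 counts, so the level of the leading hairpin limits the range a cluster can reach. By mean CPM, only the leading hairpin of the Mir17 cluster (50795) was above Mir322 (20633). The ranking of ranges is therefore not independent of that level. No difference between clusters was tested. Mir322 made up 81.3% of its cluster by mean CPM. Of the 15 clusters, 2 had a larger share in their leading hairpin, those led by Mir449a and Mir23a, and both have 3 detected hairpins.

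**Figure D3:**
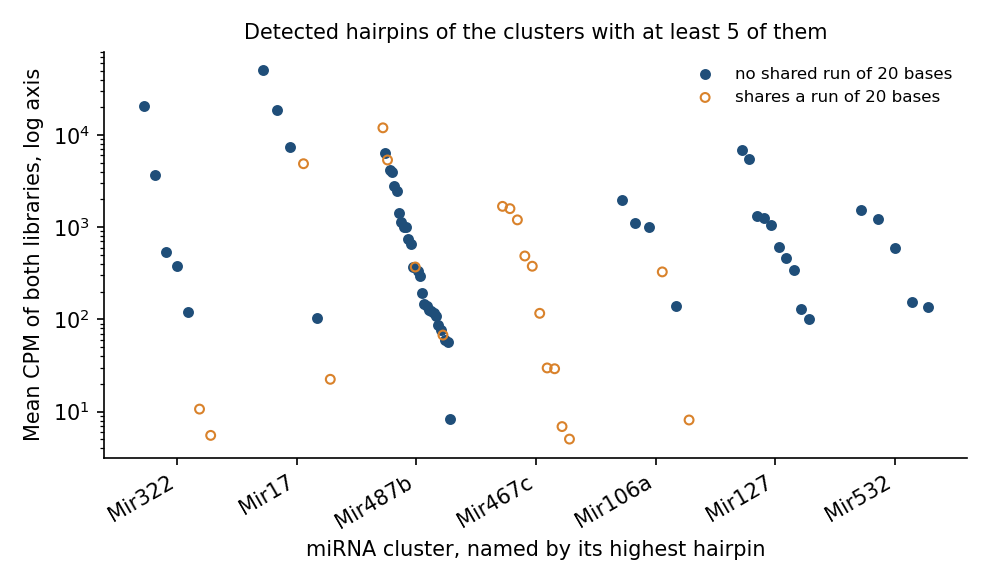
Mean CPM on a log axis of every detected hairpin in the 7 clusters with at least 5 of them, each named by its highest hairpin and ordered by range. Open circles are hairpins with a stretch of 20 bases found in another hairpin too, and the lowest points of the Mir322, Mir17, Mir467c and Mir106a clusters are of that kind.

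Within the miR-15/16 seed list, Mir322 had the most counts. The list holds 12 genes whose mature miRNA carries the seed of miR-322-5p or, for Mir503, bases 2 to 7 of it. Of these, 11 were found in the tables under their symbols and 7 were detected, while Mir195b, Mir6342, Mir6353 and Mir6419 had 0 counts in both libraries. Mir322 and Mir503 together held 69.5% of the list's counts in replicate 1 (69.2% to 69.8%) and 72.9% in replicate 2 (72.7% to 73.2%), a mean of 71.2% ± 2.43 (SD, n = 2). Mir322 alone held 67.8% and 71.0%. The next members were Mir15a (3830 and 3629 CPM), Mir16-1 (2341 and 2687 CPM) and Mir15b (1501 and 1154 CPM), all below Mir322 and above Mir503 in both libraries. Mir195a (380 and 362 CPM) lay below Mir503. Mir16-1 and Mir16-2 encode the same mature miR-16 and lose reads that match both. The share of Mir322 is therefore that among reads placed at a single position, not a share of the family's RNA. Each count also holds both arms of a hairpin, while the 3p arms of Mir322 and Mir503 have other seeds.

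In the miR-125 seed list, Mir351 was second to Mir125a. Mir125a had 5821 and 4342 CPM, Mir125b-1 had 2150 and 1996 CPM and Mir125b-2 had 1197 and 1244 CPM. Mir351 held 28.7% of the list's counts in replicate 1 (28.2% to 29.2%) and 32.7% in replicate 2 (32.3% to 33.2%), a mean of 30.7% ± 2.86 (SD, n = 2). Mir351 was below Mir125a and above Mir125b-1 in both libraries. The miR-125b copies share sequence with each other and lose reads that match both. The order and share of Mir351 are therefore those among reads placed at a single position, not of the family's RNA. Each count also holds both arms of a hairpin, while the 3p arm of Mir351 has another seed. Mir6367 and Mir6394, whose mature miRNAs have the same seed, had 0 counts in both libraries.

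**Figure D4:**
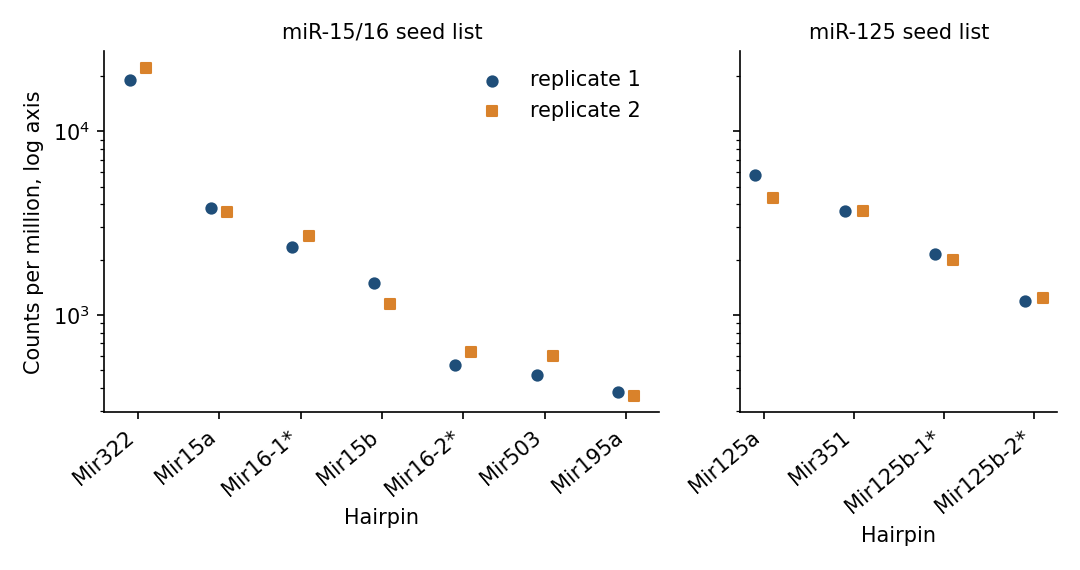
CPM on a log axis of the detected genes of the miR-15/16 seed list (left) and the miR-125 seed list (right), with circles for replicate 1 and squares for replicate 2. An asterisk marks genes that share sequence with another copy, and Mir322 lies above every other gene of the left list while Mir351 lies below Mir125a.

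Between the libraries, the hairpins were higher in replicate 2, with Mir351 nearly equal. The ratios of replicate 2 to replicate 1 were 1.16 for Mir322 (counting interval 1.15 to 1.18), 1.27 for Mir503 (1.18 to 1.36) and 1.00 for Mir351 (0.975 to 1.03). They were 1.17 for Mir542 (1.08 to 1.27) and 1.43 for Mir450b (1.24 to 1.66). The 2 hairpins with the fewest counts had wide intervals, 1.07 to 3.14 around 1.80 for Mir450-1 and 0.664 to 2.87 around 1.35 for Mir450-2. With 0.5 added to each count, only Mir450-1 reached 1.5-fold, so 1 of 7 members passed this fold, against 15.5% of the 393 genes that averaged 10 counts or more (7.38% higher and 8.14% lower in replicate 2). The largest difference in the cluster therefore lies in a hairpin with 21 and 54 counts. Over the 393 genes the median ratio was 0.975 and the 10th and 90th percentiles were 0.707 and 1.43, while the median over the 7 members was 1.27. All 7 members were higher in replicate 2 by any amount, Mir351 at a ratio of 1.00 among them, against 47.1% of the 393 genes. The 7 members are neighbours on a strand and are not independent of each other, and with 1 library on each side there is no test.

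Markers of other cell types were also compared between the libraries. In summed CPM, the ratio of replicate 2 to replicate 1 was 3.66 for skeletal and heart muscle and 0.670 for epithelium. The ratios of the other lists in this paragraph lay between the 10th and 90th percentiles of single genes (0.707 and 1.43). The summed CPM of the skeletal and heart muscle list was 177 in replicate 1 and 647 in replicate 2, with 5 of its 9 counted genes detected and Mir1a-1 and Mir133a-1 at 0. Most of it was Mir206 (146 and 579 CPM), a miRNA of skeletal muscle, while Mir208a was lower in replicate 2 (5.06 and 4.05 CPM). Mir1a-1 and Mir133a-1 each share a run of 20 bases with another hairpin. Reads that match several positions were tallied apart, so the 0 of these genes does not show absence. The smooth muscle and pericyte list (2 of 2 detected) had 8348 and 10834 CPM. The epithelium list (7 of 7 detected) was lower in replicate 2 in sum, with 9660 and 6470 CPM, though Mir205 was not (1271 and 1459 CPM). Within it, Mir200a (146 and 143 CPM) and Mir203 (2230 and 2155 CPM) were nearly equal between the libraries. The mesenchyme list (4 of 4 detected) had 12931 and 10846 CPM in sum, where Mir214 was lower in replicate 2 (12145 and 9714 CPM). The other 3 genes, all of miR-199, were higher, among them Mir199b (672 and 970 CPM). The miR-199 genes also share such runs and lose reads that match several positions. The endothelial Mir126a had 25987 and 23442 CPM. The erythroid list (3 of 3) had 298 and 355 CPM in sum, where Mir451a was higher in replicate 2 (254 and 316 CPM). Mir144 was nearly equal (23.2 and 23.1 CPM). Mir486, which shares sequence with another hairpin, was lower in replicate 2 (21.3 and 15.7 CPM). The leukocyte list (3 of 3) had 555 and 452 CPM. The part of these cell types in the levels or ratios of the cluster was not tested.

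**Figure D5:**
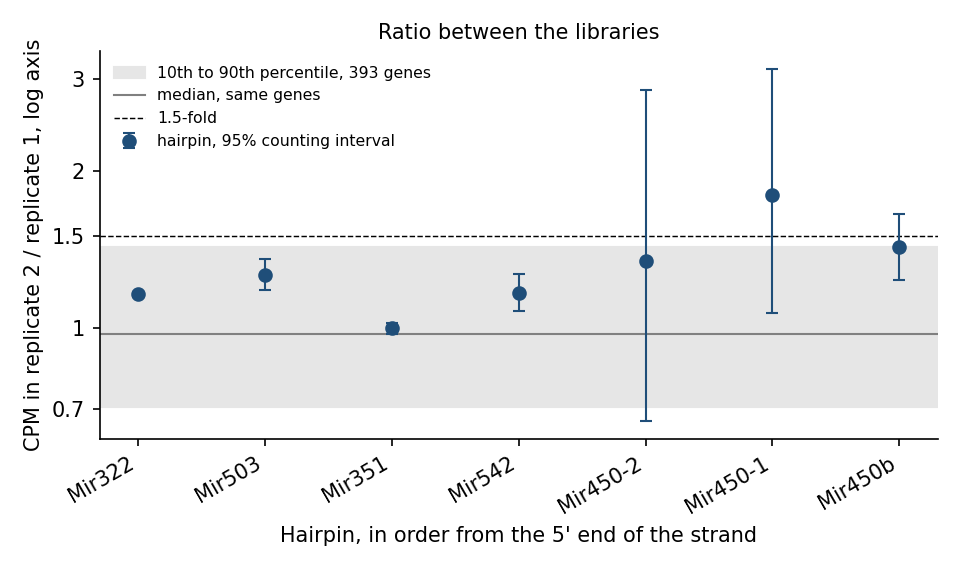
Ratio of CPM in replicate 2 to replicate 1 on a log axis for each hairpin, with 95% counting intervals. The grey band spans the 10th to 90th percentile of 393 genes (0.707 to 1.43), the grey line is their median of 0.975, and Mir450-1 at 1.80 is the only hairpin above the dashed line at 1.5-fold.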

How the data were processed

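Small RNA, under 30 bases per the labels, was sequenced from 2 pools of hindbrain. The authors deposited whole-number read counts per miRNA gene, made from reads aligned to mm10 and counted on GENCODE M4, per the readme deposited beside them. The aligner, the counter and their settings were not given in the sources used here. Column 3 was read as the gene's own strand, inferred from the layout and totals. Tally rows without a gene name were excluded. Unmapped reads were 15.7% and 16.2% and reads with several positions 32.7% and 33.4% of all reads.

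Symbols, positions and hairpins came from GENCODE M21 (1894 of 1973 genes), on GRCm38, the assembly of mm10. Folding energies used RNAfold 2.7.2, and size factors edgeR 4.0.16 and DESeq2 1.42.0 in R 4.3.3. The rest used Python 3.11.15, pandas 2.3.3 and SciPy 1.17.1. Ratios and intervals were tried on counts simulated with known fold changes and counting error only. Such counts hold no spread between libraries, so they cannot show how the ratios behave under it. Alternatives covered strand, denominator, count minimum, fold, scaling, shared sequence and each library. Named genes are the members, all genes of the seed and marker lists, rank neighbours of the 3 highest members and leading hairpins of clusters. Members and lists were chosen with earlier results of these data known. Lowest hairpins of clusters were named after their values were seen.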

Additional observations from a re-analysis of the deposited data

How the results depend on the processing

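The share of the cluster was 1.17% with all reads as the denominator and 2.93% without Mir99a, the most abundant gene, in the total. Leaving out each library gave 2.37% to 2.70%. The ratio of highest to lowest hairpin was 174 on average with a minimum of 50 counts or without hairpins that share a run of 20 bases, since both settings remove Mir450-1 and Mir450-2, and 2745 per base of hairpin. Leaving out each library gave 3503 to 4057. The rank of that ratio among clusters was 3 with a minimum of 1 or 50 counts and 4 without hairpins that share sequence. At 2-fold, 0 members and 18 of 393 genes passed, and with a minimum of 1 count in each library 157 of 616 genes passed 1.5-fold. TMM or DESeq2 scaling left 1 member past 1.5-fold. With both strands together, Mir322 with Mir503 held 71.2% of the counts of their seed list and Mir351 held 30.7% of its own, on average. Adding the reads opposite to Mir497b, described below, gave 70.1% for Mir322 with Mir503. Leaving out a library only returns the share of the other library, so it cannot show how stable the shares are. Neither share was recomputed without hairpins that share sequence. Reads assigned to no gene because they match several positions limit the miR-450a, miR-16 and miR-125b values. No paired analysis was possible because there is only 1 group.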

Other observations

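The seed family of Mir322 has a further gene, Mir497, whose symbol was not matched in the count tables. The tables hold Mir497b, which the annotation places on the opposite strand of the same position. Reads opposite to Mir497b came to 1333 counts (482 CPM) in replicate 1 and 1793 counts (454 CPM) in replicate 2, against 3 and 1 counts on its own strand. This was above Mir503 in replicate 1 and below it in replicate 2. With these reads added to the miR-15/16 seed list, an alternative chosen after the data were seen, Mir322 and Mir503 held 68.3% and 71.9% of its counts.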
